A study of Mus musculus with 2 samples.

Results

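DNA replication and S phase genes are described here on expression arrays of mouse embryonic fibroblasts (MEFs) with and without Lsh. The 44 genes were taken by name: the proteins that license origins, the replisome, the enzymes that make deoxynucleotides and the regulators of S phase entry. Of the 44, 43 were matched to a row of the deposited table, among 16579 genes matched in all. Pcna, the sliding clamp, was not matched and is not analysed here.

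Lsh, encoded by Hells, is a chromatin remodelling protein of the SNF2 family that is needed for normal DNA methylation. The series asked how expression follows Lsh-dependent cytosine methylation outside repeats. Total RNA of 1 Lsh+/+ and 1 Lsh-/- MEF sample, both grown in DMEM with serum, glutamine and antibiotics, was labelled with biotin and hybridised to the Affymetrix Mouse Genome 430 2.0 array, 1 array per genotype. The labels do not give cell density, passage, immortalisation or cell cycle profile.

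Each genotype therefore rests on 1 sample, with no replicate, no spread and no test, and this number of arrays limits the precision of every value below. Values are log2 expression values made by the authors with RMA, and differences are knockout minus wild type. A gene was kept where at least 1 of its values reached its array's median over all rows (wild type 3.86, knockout 3.88); this limit on dim rows says nothing about detection. Genes are counted as higher or lower where they differ by at least 2-fold, unless another threshold is named. Elsewhere the words give a direction only.

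Replication begins when the origin recognition complex, with the loaders Cdc6 and Cdt1, places the ring-shaped MCM2-7 helicase on DNA during G1. In S phase kinase activity, Mcm10, Cdc45 and the GINS complex turn that ring into the active helicase, and primase, the replicative polymerases, the sliding clamp, nucleases and ligase copy the strands behind it. Many of these genes are transcribed in late G1 under the control of E2F transcription factors, which bind short GC-rich words in their promoters, and they are common readouts of the share of cycling cells in a culture.

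The promoters shown next belong to helicase genes and the loader Cdc6, which hold E2F words and differed by 0.89 to 1.23. Promoters of an origin and a polymerase gene that hold such words and lay near 0 are shown too. Prim1, Fen1, Rrm2 and Mcm2, which differed by 0.98 to 1.22, hold none and are not shown. They come from the RefSeq promoter table (build GRCm38.p6), are written 5′ to 3′ on the gene's strand, and all lie before the annotated start. The capitals mark 1 of 4 E2F words, TTTCCCGC, TTTCGCGC, TTTGCCGC or TTTGGCGC, on either strand.
Cdc6 (chr11:98907983-98908050, + strand): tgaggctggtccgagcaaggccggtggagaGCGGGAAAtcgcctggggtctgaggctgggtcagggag
Mcm5 (chr8:75109326-75109397, + strand): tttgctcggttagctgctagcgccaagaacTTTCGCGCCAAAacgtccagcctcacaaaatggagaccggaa
Mcm6 (chr1:128359715-128359845, - strand): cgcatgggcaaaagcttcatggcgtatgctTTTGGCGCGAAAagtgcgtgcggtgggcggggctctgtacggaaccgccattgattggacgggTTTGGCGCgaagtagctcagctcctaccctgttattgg
Mcm7 (chr5:138172011-138172078, - strand): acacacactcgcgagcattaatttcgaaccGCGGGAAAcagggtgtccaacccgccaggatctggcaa
Orc3 (chr4:34614946-34615013, - strand): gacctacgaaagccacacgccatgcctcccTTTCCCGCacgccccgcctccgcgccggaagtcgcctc
Pola1 (chrX:93632256-93632323, - strand): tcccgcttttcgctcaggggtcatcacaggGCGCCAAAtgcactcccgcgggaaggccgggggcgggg

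In Mcm5 and in the upstream site of Mcm6 a word on each strand overlapped the other by 4 bases, which gives the run of 12 capitals. Mcm6 held a further word nearer its start. The words were searched in the whole 300 bases of each promoter, from 250 before the start to 50 after it.

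As a group the replication genes were higher in the knockout relative to the other genes on the array, by a modest amount. Of the 43 measured genes 40 were kept, 1 of them through its knockout value alone. The kept genes had a median difference of 0.41, while all 9169 kept genes of the array had a median of 0.01. Without the MCM2-7 helicase subunits the other 34 kept genes had a median of 0.25, with 26 above 0. Differences above 0 were found for 32 of the 40, against 50.5% of all kept genes. With no limit they were found for 35 of the 43, against 50.7% of all measured genes.

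At 2-fold, 5 of the 40 (12.5%) were higher, namely Cdc6, Prim1, Mcm6, Fen1 and Rrm2, where 4.65% of all kept genes were. None of the 40 was at least 2-fold lower, where 6.06% of all kept genes were. Rrm2, at 1.04, lay just inside the threshold and Mcm2, at 0.98, just outside it. At 1.5-fold 14 were higher and none lower, with a background of 13.7% higher and 13.8% lower.

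These directions depend on how the arrays are scaled. The 9 probe sets for the spiked-in hybridisation controls, whose amount is fixed, themselves differed by a median of 0.44 towards the knockout. They ranged from 0.21 to 0.78, and signs given after scaling rest on the median alone. Scaled to these controls, the median of the replication genes became -0.030 and that of all kept genes -0.43. On that scale 19 of the 40 lay above 0, against 20.4% of all kept genes. None was at least 2-fold higher or lower, where 1.83% and 14.7% of all kept genes were. With a pseudocount of 32 on linear values only Mcm6 was at least 2-fold higher, where 1.1% of all kept genes were. The scaling subtracts the same amount from every gene, so the distance between the list and all genes, 0.40, could not change with it. That distance was 0.21 with the pseudocount and 0.32 after subtracting chromosome medians. The word "higher" is used below relative to the other genes.

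**Figure D1:**
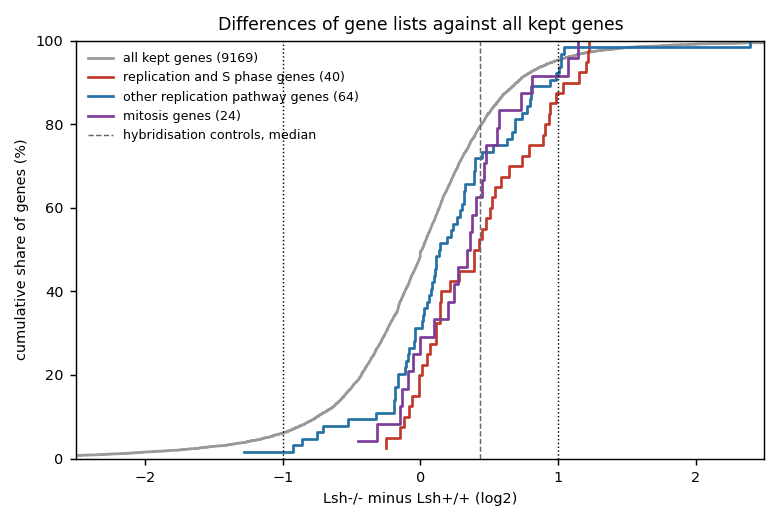
Cumulative share of genes (%) against the difference between the knockout and wild type arrays (log2) for all 9169 kept genes, the 40 replication and S phase genes, 64 other genes of the pathway and 24 mitosis genes. The replication genes lie to the right of all kept genes, with medians of 0.41 and 0.01 that become -0.03 and -0.43 after scaling to the hybridisation controls (dashed line at 0.44); dotted lines mark 2-fold.

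Facts of the arrays bear on all of these values. Hells, the targeted gene, read 6.68 and, in the knockout, 5.22, which is 2.75-fold lower, and the labels do not say whether its probes lie in the deleted part. The gap between 3′ and 5′ probe sets was wider in the knockout by 0.60 for Actb and 0.70 for Gapdh. For 18S ribosomal RNA it was narrower, with a difference of -0.59. The part of RNA quality in the differences was not tested. Of 14 fibroblast markers 13 were kept, and Thy1 lay below the limit on both arrays. At least 2-fold lower in the knockout were 5 of the 13, where 6.06% of all kept genes were. Of these 5, Lum and Postn were kept through their wild type values alone. The summed linear level of the 14 was 20996 and 15786. Of 8 epithelial markers 4 were kept and 2, Krt18 and Krt19, were at least 2-fold higher, where 4.65% of all kept genes were. Krt18 was kept through its knockout value alone. Epcam and Cdh1 lay below the limit on both arrays, and the summed linear level of the 8 was 272 and 1806. The endothelial receptor Kdr (1.82), the muscle filament gene Des (-0.26) and the neural filament gene Nes (0.04) were the only kept genes among 5 measured markers of each of these types, and none of 5 blood or 5 pluripotent and germ cell markers was kept. The part of a changed cell makeup was not tested. In bulk RNA, more cycling cells and more RNA per cell cannot be told apart.

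The MCM2-7 helicase was shifted in every subunit. All 6 were higher in the knockout, by 0.52 to 1.20 with a median of 0.91, and all 6 stayed above 0 after scaling to the hybridisation controls, at 0.09 to 0.76. Mcm6 read 7.40 in wild type and 8.60 in knockout cells, 2.30-fold higher, and from here on the wild type value is given first. Mcm2 read 6.03 and 7.02, and Mcm5 read 5.57 and 6.51. Mcm7 read 7.42 and 8.30.

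The remaining subunits differed by less. Mcm3 went from 6.19 to 6.71 and Mcm4 from 7.25 to 7.79, differences of 0.52 and 0.54. The highest of the hybridisation controls, at 0.78, differed by more. The 6 genes lie on 5 chromosomes, with only Mcm3 and Mcm6 sharing one. After the median of each gene's chromosome was subtracted their differences ran from 0.35 to 1.03, the lowest being Mcm3 and the highest Mcm6.

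The helicase loaders differed in size. Cdc6, which joins the origin complex and recruits the helicase, read 4.34 and 5.57, a difference of 1.23 or 2.34-fold, the highest of the 40. Cdt1, which escorts the ring to the origin, read 8.37 and 8.65, a difference of 0.28. Scaled to the hybridisation controls, Cdc6 stayed above 0 at 0.79 and Cdt1 turned to -0.15. With the pseudocount Cdc6 was at 0.60, below Mcm6 at 1.06. After subtracting chromosome medians it was at 1.05, below Prim1 at 1.22.

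The origin recognition complex, which marks the origins and is bound to chromatin for much of the cell cycle, was mixed. Its 5 kept subunits had a median of 0.01, with 3 above 0 (1 after scaling to the hybridisation controls), and with no limit all 6 had a median of 0.20, with 4 above 0. Orc3 read 5.29 and 5.21, Orc5 read 5.55 and 5.57 and Orc6 read 7.26 and 7.14, so these 3 lay within 0.12 of 0. Orc4 read 3.87 and 4.46, a difference of 0.59 that starts just above the limit.

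Orc2 was below the limit in the wild type at 3.74 and reached 4.12 in the knockout, at least 1.20-fold higher over the limit. Orc1, the subunit whose level in mammalian cells follows the cell cycle, read 2.83 and 3.51, 0.68 apart, with both values below the limit. Orc2 and Orc4 each had a further row with other values, and these rows also differed upwards, by 0.30 and 0.24, below the limit on both arrays.

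Factors that turn the loaded ring into a moving helicase were mixed. Of 7 genes 6 were kept, with a median of 0.17 (-0.27 after scaling to the hybridisation controls). Gins1, a GINS subunit, read 4.76 and 5.55, a difference of 0.79. Its partners did not share that size, since Gins2 read 5.40 and 5.62, a difference of 0.22, and Gins4 read 6.59 and 6.45, a difference of -0.14. Gins3 lay below the limit at 3.33 and 3.50.

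Mcm10, an initiation factor outside the ring despite its name, read 4.25 and 4.70. Cdc45, the third part of the active helicase, read 4.51 and 4.63, and Cdc7, the catalytic subunit of the kinase that fires origins, read 4.88 and 4.95. The shift of the MCM ring, with differences of at least 0.52, was thus not matched by Cdc45 at 0.12 or by Gins2 and Gins4; with 1 array per genotype the contrast has no test.

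**Figure D2:**
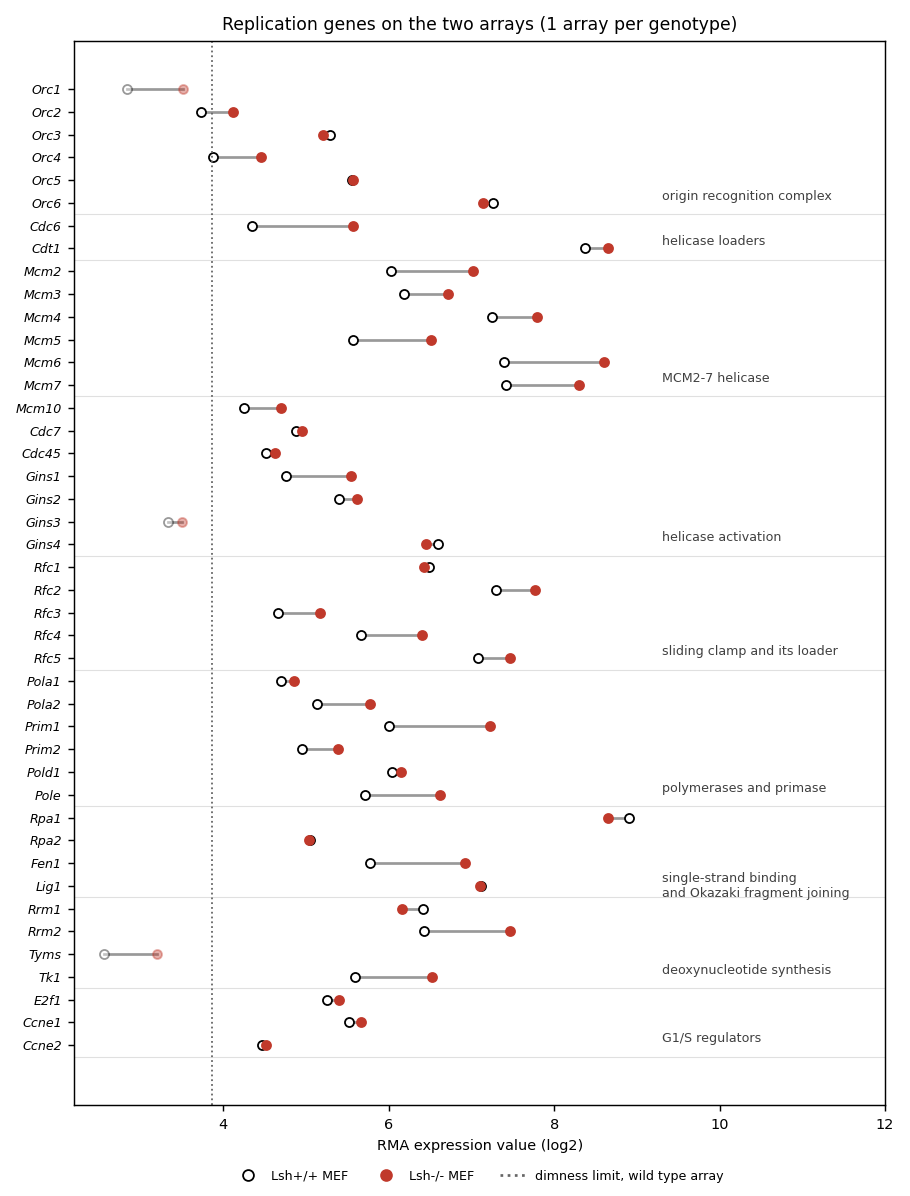
RMA expression values (log2) of the 43 measured replication and S phase genes on the Lsh+/+ array (open circles) and the Lsh-/- array (red), grouped by role; faint pairs lie below the dimness limit on both arrays and the dotted line marks the wild type limit. The 6 MCM subunits all have the knockout value to the right, as they do after scaling to the hybridisation controls, whereas the pairs of Orc5, Rpa2, Lig1 and Ccne2 nearly coincide.

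The clamp loader RFC, which opens the Pcna ring and sets it on DNA, was higher in its 4 small subunits, of which Rfc5 turned below 0 after scaling to the hybridisation controls. Rfc4 read 5.66 and 6.40, a difference of 0.74, and Rfc3 read 4.66 and 5.16. Rfc2 read 7.29 and 7.77 and Rfc5 read 7.07 and 7.46, differences of 0.48 and 0.39. The large subunit Rfc1, which is particular to this form of the loader, read 6.48 and 6.42, a difference of -0.06. No member of this complex passed 2-fold.

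Polymerases and primase were above 0 in all 6 cases (3 of 6 after scaling to the hybridisation controls), with a median of 0.53. Prim1, the catalytic subunit of primase that lays down RNA primers, read 6.01 and 7.22, a difference of 1.22 or 2.33-fold. Its partner Prim2 read 4.95 and 5.38, a difference of 0.43. Pola2, the accessory subunit of polymerase alpha, read 5.13 and 5.77 and its further row differed by 0.54, close to the 0.64 of the row used. The catalytic subunit Pola1 read 4.70 and 4.85.

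The leading and lagging strand polymerases differed in size. Pole, the catalytic subunit of the leading strand polymerase epsilon, read 5.72 and 6.63, a difference of 0.91. Pold1, its counterpart in the lagging strand polymerase delta, read 6.03 and 6.15, a difference of 0.11. The other subunits, taken from the wider pathway list, ran alike for part of each complex: Pole2 was 2.06-fold higher at 1.05 and Pole4 differed by 0.45, but Pole3, which also serves in other complexes, differed by -0.17. In polymerase delta Pold2 differed by -0.04, Pold3 by 0.20 and the small subunit Pold4 by -1.28, 2.44-fold lower.

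Okazaki fragment processing was not uniform either. Fen1, the nuclease that trims the flaps between fragments, read 5.77 and 6.92, a difference of 1.15 or 2.22-fold. Lig1, the ligase that seals them, read 7.11 on both arrays, a difference of -0.01. The single-strand binding proteins Rpa1 and Rpa2 read 8.90 and 8.65, and 5.05 and 5.03. Rpa1 had the lowest difference of the 40, at -0.25.

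Deoxynucleotide synthesis showed the same unevenness within an enzyme. Rrm2, the small subunit of ribonucleotide reductase that is made in S phase, read 6.42 and 7.46, a difference of 1.04 or 2.05-fold. Rrm1, the large subunit, which is long-lived, read 6.41 and 6.16, a difference of -0.25. Tk1, the salvage thymidine kinase of cycling cells, read 5.59 and 6.52, a difference of 0.94. Tyms, which makes thymidylate, lay below the limit at 2.56 and 3.20.

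The regulators of S phase entry stayed close to 0. E2f1, an activator of the replication genes, read 5.26 and 5.40, Ccne1 read 5.52 and 5.67 and Ccne2 read 4.47 and 4.51; the cyclins E activate the kinase Cdk2 at the start of S phase. Their differences of 0.14, 0.15 and 0.05 lay within the quartiles of all kept genes, -0.34 and 0.35. All 3 were below 0 after scaling to the hybridisation controls.

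**Figure D3:**
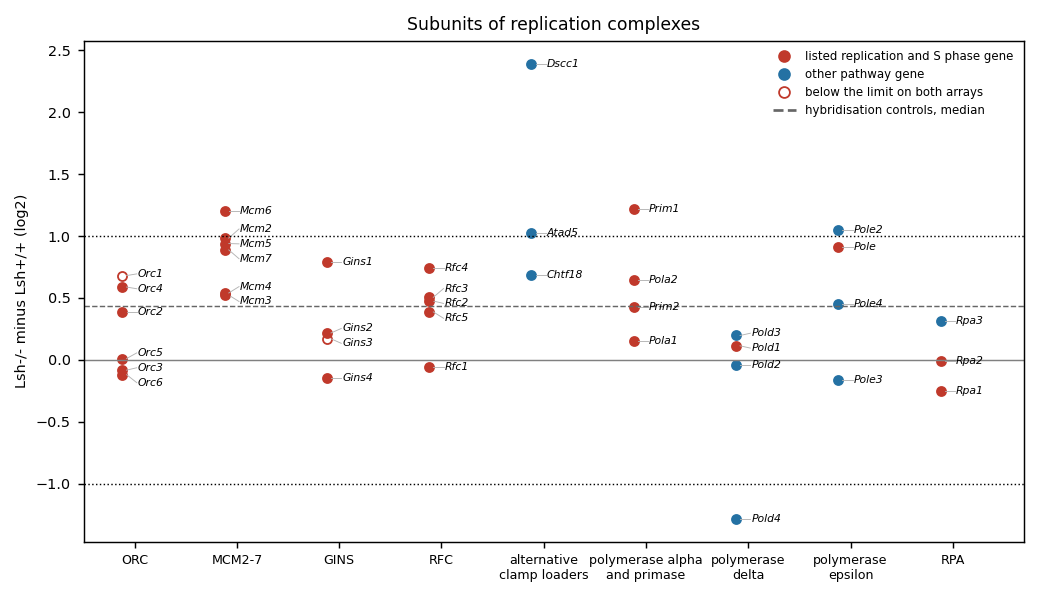
Difference between the knockout and wild type arrays (log2) for genes in 9 groups of replication factors. Listed genes are red, other pathway genes are blue and open circles mark genes below the limit on both arrays. Dotted lines mark 2-fold and the dashed line the median of the hybridisation controls at 0.44. The 6 MCM subunits all lie above that dashed line, from 0.52 to 1.20. Of the other groups shown only the alternative clamp loaders lie wholly above it. That group is not a single complex: it joins Chtf18 and Dscc1 with Atad5, and was chosen with earlier results known.

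A wider list of 71 replication pathway genes that are not among the 44 had 64 kept genes and a median of 0.14, with 44 (68.8%) above 0 against 50.5% of all kept genes. Of these, 5 (7.81%) were at least 2-fold higher and 1, Pold4, lower, where 4.65% and 6.06% of all kept genes were. Dscc1, a subunit of an alternative clamp loader, read 3.62 and 6.01, at least 4.45-fold higher over the limit. Atad5, which unloads the clamp, read 4.29 and 5.32, and Chtf18, the large subunit of the loader that holds Dscc1, read 4.61 and 5.30. All 3 of these lay above 0 after scaling to the hybridisation controls, whereas Rfc1 of the standard loader did not.

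The others past 2-fold were Pole2, Topbp1 and Timeless. Topbp1, needed to fire origins and for the checkpoint at stalled forks, read 6.11 and 7.13, and the fork protection factor Timeless read 5.47 and 6.48. Of the 5 higher genes Dscc1 alone passed 2-fold after scaling to the hybridisation controls or with the pseudocount. Atad5 and Pole2 fell short after loess and after subtracting chromosome medians too, and Timeless after loess. Pold4 fell short of 2-fold lower with the pseudocount, where the lowest difference among the other fork and chromatin assembly factors was -0.87. Other initiation factors had a median of 0.22 over 8 kept genes, of which Topbp1 alone passed 2-fold, and other fork and chromatin assembly factors 0.24 over 25. Other nucleotide synthesis enzymes had a median of 0.26 over 11 kept genes and none past 2-fold. Scaled to the hybridisation controls, however, Ctps was at -1.36, where 14.7% of all kept genes were at least 2-fold lower. Dtymk, the thymidylate kinase, was at 0.94, or 0.59 averaged over its rows, and Ctps, a CTP synthetase, at -0.93. After scaling to the hybridisation controls these 3 medians were -0.22, -0.20 and -0.17.

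Mitosis genes, the nearest comparison, had 24 kept members with a median of 0.35, between the replication genes and the wider list. Without the MCM2-7 subunits the replication genes had a median of 0.25, below that of the mitosis genes. Kif20a, a kinesin of cytokinesis, differed by 1.07 and Nuf2, a kinetochore protein, by 1.14, so 2 of the 24 (8.33%) were at least 2-fold higher and none lower, where 4.65% and 6.06% of all kept genes were. Neither passed 2-fold after scaling to the hybridisation controls, which made the median -0.09, with the pseudocount, or after subtracting chromosome medians. With 1 array per genotype the difference between the mitosis and replication medians was not tested.

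Promoters of the replication genes held the E2F words more often than promoters at large. The RefSeq table held promoters of 36 of the 44 genes, and 13 of the 36 (36.1%) held at least 1 word. The share was 2.60% of all 27025 genes in the table and 5.04% of the kept genes with a promoter. For the other pathway genes it was 29.8%, and for the mitosis genes 4.55%. Among the helicase genes 4 of the 5 with a promoter held a word (Mcm3, Mcm5, Mcm6 and Mcm7), and both loaders did. None of the 4 deoxynucleotide synthesis genes did.

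The differences of genes with and without a word overlapped over most of their range. The 11 kept replication genes with a word had a median of 0.51 and ran from -0.08 for Orc3 to 1.23 for Cdc6, and the 21 kept genes without one had a median of 0.39 and ran from -0.25 to 1.22. Orc3 and Pola1, whose words are printed above, differed by -0.08 and 0.15, while Prim1, Fen1 and Rrm2 passed 2-fold with no such word in the window. At least 2-fold higher were 2 of the 11 with a word (18.2%) and 3 of the 21 without (14.3%). Over all kept genes with a promoter the shares were 5.65% and 4.22%. Among kept genes outside the list, 361 with a word had a median of 0.08 and 6987 without one a median of 0.00. The CCAAT box, searched as CCAAT on both strands, shares no whole word with these. It was found for 21 of the 36 (58.3%), against 41.1% of all genes in the table and 43.1% of the kept genes. Among genes with a promoter, 52.6% of the other pathway genes and 86.4% of the mitosis genes held it. A match describes the letters of the window and not a bound site, and of E2F sites only the 4 exact words were searched.

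**Figure D4:**
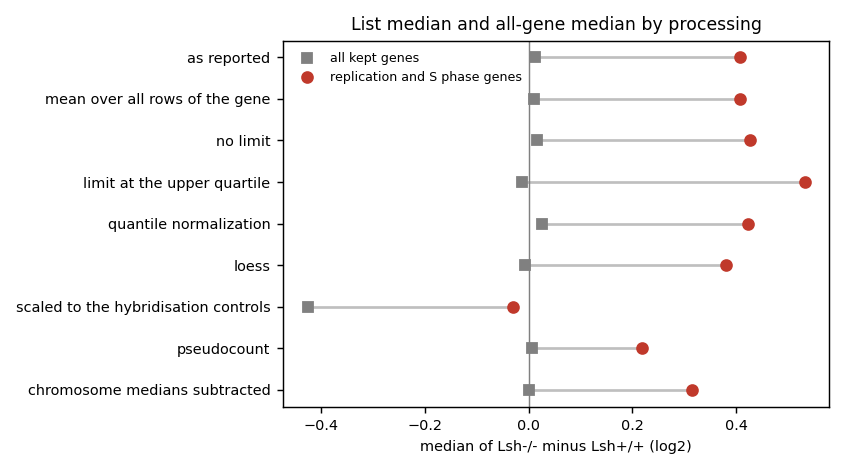
Median difference between the knockout and wild type arrays (log2) of the replication and S phase genes (red) and of all kept genes (grey squares) under each way of processing the deposited values. The replication genes lie to the right of all kept genes in every case shown. Scaling to the hybridisation controls subtracts the same amount from every gene and moves both medians below 0, to -0.03 and -0.43.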

How the data were processed

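The authors deposited log2 expression values of 2 arrays made with RMA (robust multi-array average), per the submitters' processing notes; their log2 scale was inferred from the values, which span 0.89 to 13.1. No source used here gives the version of RMA, the probe grouping or the build. The table held 23950 rows, 64 of them control probe sets. RefSeq accessions were matched without version to the RefSeq gene table of GRCm38.p6, which named 21230 rows and left 2656 unnamed.

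Each gene took its brightest row by the mean over the arrays; 11 of the 44 genes had several rows, 4 of them with differing values. Differences, counts and medians were computed with Python 3.11.15, numpy 2.4.6 and pandas 2.3.3, and the counting was tested on simulated data. The genes, lists and settings were chosen with earlier results of these data known. All kept members are named; of other lists, genes past 2-fold or farthest from 0, with Atad5, Chtf18 and the polymerase subunits shown as partners and Dtymk and the genes of the closing section named after their values were seen. The 10 alternatives are given in the closing section.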

Additional observations from a re-analysis of the deposited data

How the results depend on the processing

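No paired analysis was possible because there was only 1 array of each genotype, which also leaves no replicate to omit. The median of 0.41 became 0.53 over the 22 genes kept by an upper quartile limit, 0.22 after adding 32 to the linear values (the pseudocount), and -0.030 scaled to the hybridisation controls. The 5 genes at least 2-fold higher became 0 with that scaling, 1 (Mcm6) with the pseudocount, 14 at 1.5-fold and 0 at 3-fold. The matching shares of all kept genes were 1.83%, 1.1%, 13.7% and 1.43%. The 32 genes above 0 became 16 of 22 with the upper quartile limit and 19 of 40 with the scaling. Averaging a gene's rows, no limit, quantile normalization, loess (span 0.3) and subtracting chromosome medians moved the median by less than 0.1 log2 and left 4 to 6 genes at 2-fold; averaging rows dropped Orc2 and Orc4 below the limit. No gene was at least 2-fold lower under any of the 10 alternatives. Counts over all kept genes at 2-fold, 426 higher and 556 lower, became 225 and 314 with the upper quartile limit, 101 and 192 with the pseudocount, and 168 and 1349 with the scaling. Of the 40 differences, 13 changed sign with the scaling, none of them at 2-fold. The background of each probe is unknown, which limits the dim genes Orc1, Gins3 and Tyms most.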

Other observations

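Regulators of S phase entry other than E2f1 and the cyclins E differed in both directions, with none of 20 kept genes past 2-fold (all kept genes: 4.65% higher, 6.06% lower) and a median of 0.04. Scaled to the hybridisation controls the median was -0.40, where that of all kept genes was -0.43. On that scale 3 of the 20 passed 2-fold lower, where 14.7% of all kept genes did. They were E2f5 at -1.30, Tfdp1 at -1.19 and Ccnd3 at -1.15. Rbl1, a pocket protein that restrains E2F, read 4.49 and 5.29, and Ccnd2, a G1 cyclin, read 8.27 and 9.07. Both were 0.80 higher and stayed above 0 after scaling to the hybridisation controls. Rbl1 had 2 rows with differing values, and averaged over them its difference was only 0.08. E2f2, an activating E2F, was at least 1.03-fold higher over the limit, at 3.16 and 3.90. Without that scaling, on the lower side were the E2F family members E2f5 at -0.86 and E2f4 at -0.53, the E2F partner Tfdp1 at -0.75 and the G1 cyclin Ccnd3 at -0.71.

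Of 5 kept CDK inhibitors, which block the kinases of G1, only Cdkn2b passed 2-fold. It read 9.08 and 7.60, 2.78-fold lower, where 6.06% of all kept genes were at least 2-fold lower. Cdkn2c read 6.57 and 5.78. Cdkn1a and Cdkn2a differed by 0.23 and 0.18, Cdkn1b was at least 1.34-fold higher over the limit, with a wild type value below it at 3.82 and 4.28 in the knockout, and Cdkn1c lay below the limit on both arrays. Scaled to the hybridisation controls Cdkn2c passed 2-fold lower too, at -1.23, where 14.7% of all kept genes did.

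By chromosome, the replication genes had these medians where at least 3 were kept; no test compares the chromosomes. The 8 kept genes on chromosome 5 had a median of 0.43 against -0.04 for all 613 kept genes there, and the 5 on chromosome 8 a median of 0.22 against 0.09 for 522. The 3 on chromosome 4, namely Orc3, Rpa2 and Ccne2, had a median of -0.01 against -0.14 for 579. The 4 on each of chromosomes 1, 2 and 7 had medians of 0.47, 0.52 and 0.05 against 0.17, -0.12 and -0.07, and the 3 on each of chromosomes 11 and 16 had 0.94 and 0.54 against 0.18 and -0.16.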
